A study of Mus musculus with 16 samples.

Results

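The mRNAs of 9 core kinases of the mitogen-activated protein kinase (MAPK) cascades were followed in a CPEB4 RNA-immunoprecipitation and sequencing (RIP-seq) experiment in mouse bone marrow-derived macrophages (BMDMs). The 9 kinases were chosen by symbol, out of 14925 genes with a 3′-UTR in the deposited tables, and all 9 were found. They are Map3k8, Map2k3, Map2k6, Map2k1, Mapk14, Mapk8, Mapk3, Mapkapk2 and Mapkapk3. Each gene is described by its 3′-UTR region with the most reads. BMDMs grown from bone marrow of adult mice (strain label C57BL/6J 129) came as a wildtype (WT) culture numbered 76 and a Cpeb4 knockout (KO) culture numbered 73, which lacks CPEB4 in all cells according to the methods. Each culture was left untreated or given lipopolysaccharide (LPS, from E. coli, 10 ng/ml) for 9 h. RNA pulled down by an antibody to CPEB4 (RIP) and RNA of the lysate (Input) were sequenced, which gave 8 libraries from 16 samples, since lanes 7 and 8 of a library are summed. Each combination of genotype, treatment and assay is thus a single library. No difference could be set against a spread between replicates, and genotype cannot be told apart from culture.

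MAPK cascades pass a signal through tiers of kinases that phosphorylate one another. A MAP3K activates MAP2Ks, these activate a MAPK, and the MAPK phosphorylates transcription factors and further kinases. In macrophages, Toll-like receptor 4 senses LPS and switches on the p38, ERK and JNK arms. Map3k8 encodes TPL2, the MAP3K that drives the ERK arm after LPS, Map2k1 encodes the ERK activator MEK1, and Mapk3 encodes ERK1. Map2k3 and Map2k6 encode MKK3 and MKK6, the activators of p38, and Mapk14 encodes p38α. Mapkapk2 and Mapkapk3 encode MK2 and MK3, kinases downstream of p38 that regulate the decay and translation of cytokine mRNAs. Mapk8 encodes JNK1. CPEB4 binds U-rich motifs in 3′-UTRs, the cytoplasmic polyadenylation elements (CPEs), and can change the poly(A) tail, the stability and the translation of an mRNA that carries them.

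The 3′-UTR reads with a gene symbol ranged from 467696 in the untreated KO RIP to 2492300 in the WT RIP after LPS. All 3′-UTR reads, those without a symbol included, made up 27.5% and 32.1% of the authors' library totals in the KO RIPs, against 46.9% to 70.7% in the other 6 libraries. All 9 macrophage markers examined (Csf1r, Adgre1, Cd68, Lyz2, Itgam, Fcgr1, Mertk, Cd14 and Mrc1) had reads in every library, with a summed level of 1783 to 4554 CPM (counts per 1000000 3′-UTR reads of the library). T cell, B cell, neutrophil, dendritic cell, stromal and red cell markers together stayed at or below 10.7 CPM per list. In that order 4 of 5, 3 of 4, 1 of 5, 3 of 3, 2 of 3 and 1 of 2 listed markers had a region. The neutrophil and red cell values thus rest on 1 gene each. The summed level of 7 LPS response genes was 194 and 139 CPM in the untreated WT and KO Inputs and 3555 and 3894 after LPS. The 3′-UTR of Cpeb4, the targeted gene, had 130 and 136 CPM in the untreated and LPS WT Inputs and 52.0 and 52.6 in the KO Inputs. The WT RIPs held 836 and 770 CPM of it and the KO RIPs 257 and 367. These are 3′-UTR reads, and the sources used here do not say whether the deleted part includes it.

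The regions of the 9 kinases were very different in length and motif content. All lie wholly inside the 3′-UTR of the transcript they belong to (build mm10, GENCODE M21), and no exon of another gene overlapped any of them. The whole region of Mapk3 is, however, coding sequence in 3 other Mapk3 transcripts, so its reads and motifs are not those of a 3′-UTR alone. In other transcripts of their genes 131 of the 1097 bases of Map3k8 and 134 of the 4410 bases of Mapk8 are coding. The longest was that of Mapk8 (chr14:33377898-33382307, minus strand, 4410 bases), and the shortest was that of Mapk3 (chr7:126764767-126764845, plus strand, 79 bases). The Mapkapk3 region lies at chr9:107254927-107256182 (minus strand, 1256 bases), the Map2k3 region at chr11:60951848-60952811 (plus strand, 964 bases) and the Mapk14 region at chr17:28746339-28748404 (plus strand, 2066 bases). Mapkapk2 has 1388 bases at chr1:131053704-131055091 (minus strand), Map2k1 has 915 bases at chr9:64185770-64186684 (minus strand) and Map2k6 has 775 bases at chr11:110512867-110513641 (plus strand).

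CPE letters (TTTTAT or TTTTAAT or TTTTAAAT or TTTTACT or TTTTCAT or TTTTAAGT or TTTTGT, on the strand of the transcript, overlapping matches counted) occurred 17 times in Mapk8, 4 times in Mapk14, 3 times each in Mapkapk2, Mapkapk3, Map2k3, Map2k6 and Map2k1, 2 times in Map3k8 and 0 times in Mapk3. The search was run on the genome sequence of GRCm38.p6, the same build as mm10, and 77.8% of 10511 regions with at least 10 reads held at least 1 of these motifs. Among regions within 20% of the length of Mapk3, which are short, 17.1% held one. A CPE lay within the last 100 bases of the regions of Mapkapk3, Map2k3, Mapk8 and Mapkapk2, and of 35.3% to 40.5% of regions of like length. For 3 of these kinases the last CPE stood next to the polyadenylation signal (AATAAA or ATTAAA): 11 bases before it in Mapkapk3, and overlapping it in Map2k3 and Mapk8. In Mapk14 the last CPE was 607 bases before the signal, in Map2k1 257 bases. The AU-rich element letters ATTTA, the motif of the decay factor TTP, occurred 7 times in Mapk8, 4 times in Map3k8 and in Map2k6, 1 time in Mapk14, Mapkapk2 and Map2k1, and 0 times in Mapkapk3, Map2k3 and Mapk3, while 68.8% of those 10511 regions held at least 1. Below, 30 bases are printed 5′ to 3′ for 4 kinases to show where CPE and signal stand at the 3′ end. They end with the last polyadenylation signal, and capitals mark CPEs and signals. The windows lie at chr9:107254950-107254979 (minus strand) for Mapkapk3, chr11:60952753-60952782 (plus strand) for Map2k3, chr14:33377918-33377947 (minus strand) for Mapk8 and chr17:28748358-28748387 (plus strand) for Mapk14.
Mapkapk3: tgctgggTTTTATattctgatatcAATAAA
Map2k3: gggcaggaacctattgctgTTTTAATTAAA
Mapk8: gtgtcaattggttataataTTTTAAATAAA
Mapk14: atgtcagataataccactggttaaAATAAA
In the Map2k3 and Mapk8 windows the CPE (TTTTAAT and TTTTAAAT) and the signal (ATTAAA and AATAAA) share bases and appear as a single run of capitals. The Mapk3 region held no polyadenylation signal and had a GC content of 65.8%, against a median of 45.3% in regions of like length. The deposited CPE predictions of the authors name Mapkapk3 as activation, early and strong, and Mapkapk2, Map2k6 and Mapk8 as repression, and give none for the regions of the other 5 kinases used here.

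Levels of 3′-UTR reads spanned a wide range among the 9 kinases. In CPM per kilobase of region, the untreated WT Input was led by Mapk3 (681) and Mapkapk2 (639), followed by Mapk14 (193), Map2k1 (124), Mapkapk3 (108) and Map2k3 (93.8). Map3k8 (10.8) and Mapk8 (2.44) were far lower, and Map2k6 had no read. For Map2k6 this allows a level of up to 3.23 CPM, a value not divided by region length. The Wilson intervals (95%, counting error only) of Mapk3 and Mapkapk2 overlapped, as did those of Map2k1, Mapkapk3 and Map2k3. The value of Mapk3 depends on how length is counted, because a read of 100 bases that only touches a 79-base region is counted. Per kilobase of possible start positions it was 302, which leaves Mapk3 above Mapk14 and below Mapkapk2. After LPS the order in the WT Input was Mapkapk2 (859), Mapk3 (474), Map2k1 (255) and Mapk14 (162), so that Map2k1 passed Mapk14. Per kilobase of possible start positions Mapk3 stood at 210 after LPS, below Map2k1 at 230, and in the KO Input at 172, below 284. In the KO Input after LPS the same 4 led, with Mapkapk2 at 1124 and Map2k1 at 315 on the same per-length scale.

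**Figure D1:**
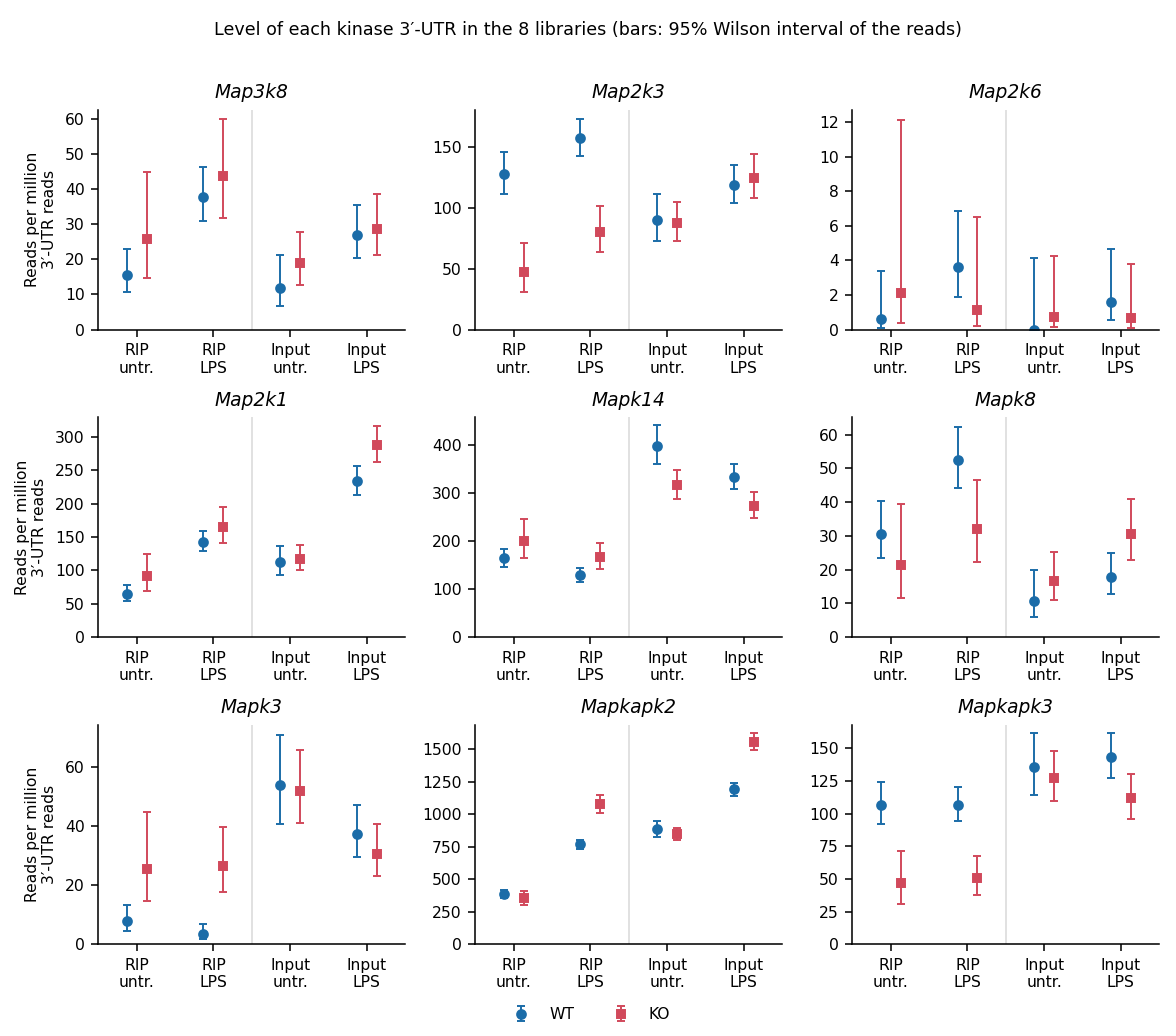
CPM (reads per 1000000 3′-UTR reads, vertical axis, linear from 0, own scale for each gene) of the 9 kinases in the 8 libraries, WT as blue circles and KO as red squares, with 95% Wilson intervals of the reads. Mapkapk3 and Map2k3 lie higher in the WT than in the KO RIPs, and their Inputs differ less between the genotypes. Mapk3 lies lower in the WT RIPs (7.80 and 3.61) than in the KO RIPs (25.7 and 26.4).

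Setting the WT RIP over the KO RIP asks which mRNAs the antibody recovered from cells with CPEB4 beyond cells without it. Reads were scaled to the 3′-UTR total of each library, 1 read was added, and a gene is called where the log2 ratio is beyond 0.5 in size and its 95% counting interval leaves out 0, with at least 10 reads in the pair. In untreated cells 2 of 8 kinases tested were called higher in the WT RIP, Map2k3 and Mapkapk3, and 2 lower, Mapk3 and Map2k1. Over all 8064 genes tested, 12.3% were called higher and 18.1% lower. After LPS 3 of 9 kinases were called higher, Map2k3, Mapkapk3 and Mapk8, and 1 lower, Mapk3, where 16.4% of all 8310 genes were called higher and 21.7% lower. The median log2 ratio of the kinases was −0.10 untreated and −0.22 after LPS, beside −0.10 and −0.04 over all genes. The called kinases did not share a direction, and each is described in turn.

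Mapkapk3, which encodes the p38-activated kinase MK3, had 178 reads (107 CPM) in the untreated WT RIP and 22 (47.0 CPM) in the KO RIP. After LPS the WT RIP held 265 reads (106 CPM) and the KO RIP 44 (50.5 CPM). The Inputs held 136 and 127 CPM untreated and 143 and 112 after LPS, WT before KO. Both WT RIPs were thus about equal to each other and above both KO RIPs, while the 4 Inputs ranged from 112 to 143 CPM. The log2 ratio of WT over KO Input was 0.09 (−0.24 to 0.42) untreated and 0.36 (0.08 to 0.63) after LPS. The log2 ratio of WT over KO RIP was 1.13 (95% counting interval 0.50 to 1.75, 2.18-fold) untreated and 1.05 (0.59 to 1.50, 2.07-fold) after LPS.

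Map2k3, which encodes the p38 activator MKK3, showed the same order. The untreated WT RIP held 213 reads (128 CPM) and the KO RIP 22 (47.0 CPM), and after LPS they held 392 (157 CPM) and 70 (80.3 CPM). The Inputs lay at 90.4 and 87.5 CPM untreated and at 119 and 125 after LPS. The log2 ratio of the RIPs was 1.39 (0.76 to 2.01, 2.61-fold) untreated and 0.95 (0.59 to 1.32, 1.94-fold) after LPS. Both kinases lay above the median of genes of like GC content, which was −0.32 and −0.46 for Mapkapk3 and −0.30 and −0.42 for Map2k3, untreated and LPS. The medians of genes with regions of like length were −0.07 and −0.01 for Mapkapk3 and −0.13 and −0.10 for Map2k3.

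Mapk8, which encodes JNK1 and holds 17 CPEs, had few reads. The RIPs held 51 (30.6 CPM) in WT and 10 (21.4 CPM) in KO cells untreated, and 131 (52.6 CPM) and 28 (32.1 CPM) after LPS. The Inputs ran the other way, with 10.8 CPM in WT and 16.6 in KO untreated and 17.9 and 30.6 after LPS. Only the Input difference after LPS was called. The log2 ratio of the RIPs was 0.41 (−0.53 to 1.35) untreated, which was not called, and 0.67 (0.09 to 1.25) after LPS, which was.

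Mapk3, which encodes ERK1, stood at the opposite end. Its region held 13 reads (7.80 CPM) in the untreated WT RIP and 12 (25.7 CPM) in the KO RIP, and 9 (3.61 CPM) against 23 (26.4 CPM) after LPS. The Inputs lay at 53.8 and 52.0 CPM untreated and at 37.4 and 30.6 after LPS, so genotype differed in the RIPs and hardly in the Inputs. The log2 ratio of the RIPs was −1.73 (−2.81 to −0.64, 3.31-fold lower in WT) and −2.78 (−3.84 to −1.71, 6.86-fold lower in WT). The 48 and 60 tested genes with regions of like length had median ratios of −0.83 and −0.91, and the 62 and 70 genes within 5 points of its GC content −0.83 and −1.04. Short and GC-rich regions thus lay low in this ratio together with Mapk3, and their part in its value, or that of coding reads, was not tested.

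The remaining kinases differed less between the RIPs. Mapkapk2, which encodes MK2, had 384 CPM in the WT RIP and 355 in the KO RIP untreated, and 770 and 1080 after LPS, with log2 ratios of 0.11 (−0.14 to 0.35) and −0.49 (−0.60 to −0.38). Mapk14, p38α, had 164 and 201 CPM untreated and 129 and 166 after LPS, with log2 ratios of −0.30 (−0.64 to 0.03) and −0.37 (−0.66 to −0.09). Neither was called in either treatment, although the intervals after LPS left out 0. Map2k1, MEK1, had 64.8 and 91.9 CPM untreated and 143 and 165 after LPS, with log2 ratios of −0.52 (−1.03 to −0.02), called, and −0.22 (−0.49 to 0.06), not called. Map3k8, TPL2, had 15.6 and 25.7 untreated and 37.7 and 43.6 after LPS, with log2 ratios of −0.78 (−1.73 to 0.18) and −0.23 (−0.77 to 0.31). Map2k6, MKK6, had 1 to 9 reads per RIP and could be tested only after LPS, at a log2 ratio of 0.81 from 9 and 1 reads, with a wide interval that begins at −1.38 and includes 0.

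**Figure D2:**
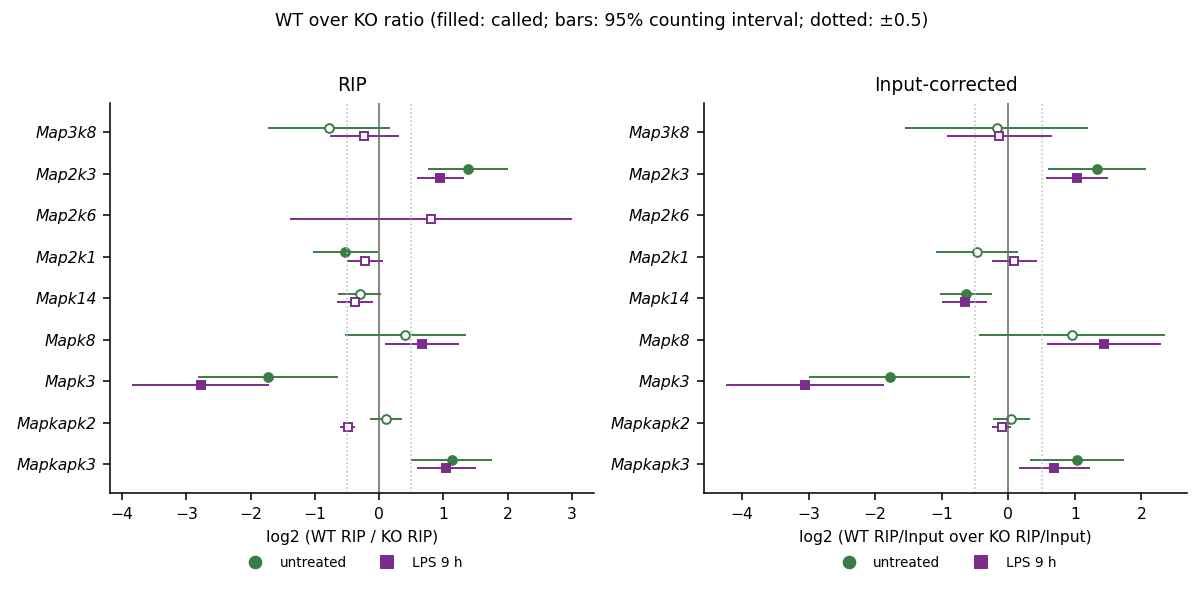
Log2 WT over KO ratio of the RIPs (left) and the same ratio after subtracting that of the Inputs (right) for the 9 kinases, untreated as green circles and after LPS as purple squares, with 95% counting intervals, filled where called. Map2k3 and Mapkapk3 lie right of 0 and Mapk3 left of 0 in both treatments and both panels, and Mapk14 is called lower only in the input-corrected panel (−0.64 and −0.66).

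The scale of this ratio decides its sign for several kinases. Scaled to the authors' library totals instead of the 3′-UTR totals, every RIP ratio moves up by 0.84 untreated and 1.14 after LPS, with TMM by 0.19 and 0.23, and with median-of-ratios factors by 0.06 and 0.09. Of all calls, 40.4% untreated and 43.1% after LPS were higher in WT, against 95.7% and 96.8% with library totals, 59.0% and 61.1% with TMM and 46.0% and 50.3% with median-of-ratios factors. Map2k3 and Mapkapk3 were higher in the WT RIP and Mapk3 lower under all 4 scalings, although Mapk3 untreated was not called with library totals. Map2k1 untreated turned to 0.32 with library totals, and with TMM it stood at −0.33 and was not called. Mapk14 and Map3k8 and, after LPS, Mapkapk2 and Map2k1 also moved above 0 with library totals. Leaving out the KO RIPs was not possible, because each is the single library of its group.

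**Figure D3:**
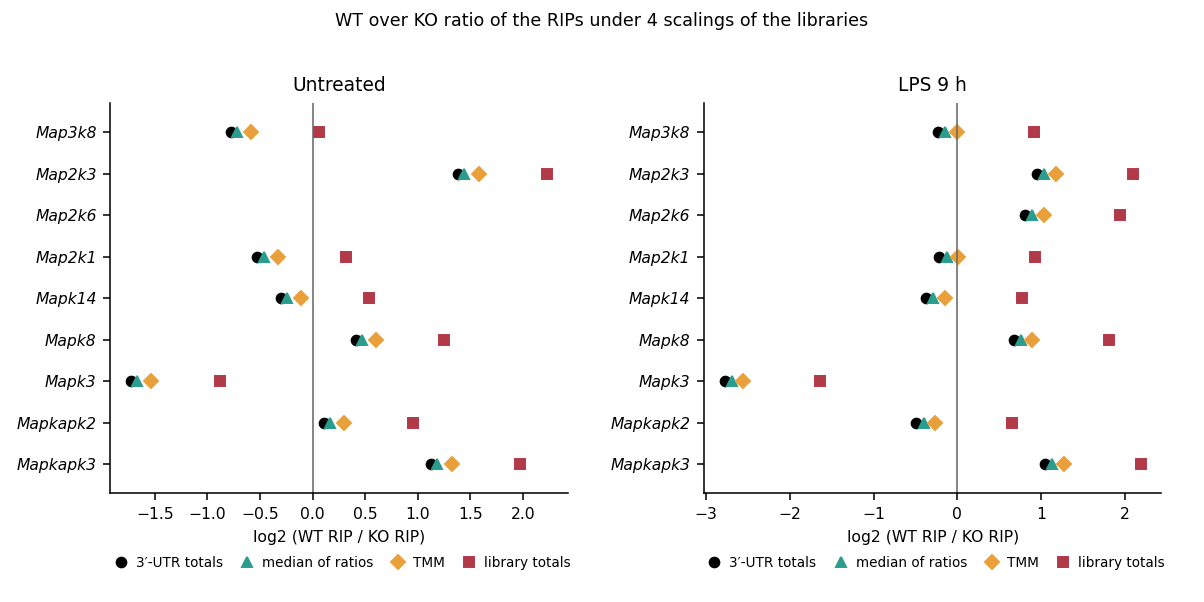
Log2 WT over KO ratio of the RIPs for the 9 kinases, untreated (left) and after LPS (right), with the libraries scaled to 3′-UTR totals (black circles), median-of-ratios factors (green triangles), TMM (orange diamonds) or the authors' library totals (red squares). A scaling moves all ratios of a treatment by the same amount, so the order of the kinases cannot change. The zero line shifts by up to 0.84 untreated and 1.14 after LPS.

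The Inputs asked whether mRNA levels differed between the genotypes. In untreated cells 0 of 8 kinases tested were called, beside 3.25% of all genes called higher and 4.83% lower. Mapk14 was the kinase whose interval left out 0, with 399 CPM in WT and 317 in KO and a log2 ratio of 0.33 (0.13 to 0.54). After LPS 0 of 8 were called higher and 1 lower, beside 5.19% and 4.09% of all genes. The one called was Mapk8, at −0.76 (−1.39 to −0.13) from 34 and 46 reads. Mapkapk2 stood at −0.39 (−0.47 to −0.30) after LPS, with 1192 CPM in WT and 1560 in KO, and Mapk14 at 0.28 (0.11 to 0.46), with 334 and 274. Mapkapk3 stood at 0.36 (0.08 to 0.63) and Map2k1 at −0.30 (−0.49 to −0.11). These intervals left out 0, but the ratios were under the size needed for a call. Fewer cells of a type and less RNA per cell cannot be told apart in such bulk libraries. Higher calls were 56.0% of all calls after LPS, and 43.3%, 46.2% and 37.7% with library totals, TMM and median-of-ratios factors.

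With the Input ratio subtracted from the RIP ratio, 2 of 8 kinases were called higher in WT untreated and 2 lower, beside 14.5% and 16.1% of 7201 genes. After LPS 3 of 8 were called higher and 2 lower, beside 14.1% and 21.4% of 7575 genes. Map2k3 remained at 1.33 (0.59 to 2.07) and 1.03 (0.57 to 1.49), and Mapkapk3 at 1.04 (0.33 to 1.74) and 0.69 (0.16 to 1.23). The Input ratio of Mapk8 was −0.55 (−1.59 to 0.49) untreated, not called, and −0.76 (−1.39 to −0.13) after LPS. Its input-corrected ratio reached 0.96 (−0.44 to 2.36) untreated and 1.43 (0.58 to 2.29) after LPS. Mapk3 stood at −1.78 (−2.99 to −0.57) and −3.06 (−4.25 to −1.87). Mapk14 was called lower in both treatments, at −0.64 (−1.03 to −0.25) and −0.66 (−0.99 to −0.32), but with library totals it stood at 0.19 and 0.54. The latter (0.21 to 0.87) was a call in the other direction. With TMM Mapk14 was called in neither treatment, and with median-of-ratios factors not after LPS. Mapkapk2 was close to 0, at 0.04 (−0.24 to 0.32) and −0.10 (−0.24 to 0.04). On 3′-UTR totals its lower level in the WT RIP after LPS was thus of the size seen in the Input. Map2k1 and Map3k8 were not called. With library totals Mapkapk2 was called higher in both treatments, and Map2k1 and Map3k8 were called higher after LPS. With TMM or median-of-ratios factors they were not called. Of all calls, 47.4% untreated and 39.8% after LPS were higher, against 93.8% and 96.8% with library totals, 61.1% and 60.2% with TMM, and 52.9% after LPS with median-of-ratios factors.

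The RIP over Input ratio shows how much of an mRNA was recovered relative to its level, with the KO as the background without antigen. Cpeb4 mRNA itself was above its Input in the KO RIPs as in the WT RIPs, 4.90- and 6.92-fold in KO and 6.37- and 5.65-fold in WT, untreated and LPS, and its input-corrected WT over KO ratio was 0.38 (−0.12 to 0.88) and −0.29 (−0.69 to 0.11). A ratio above the Input is thus also found without the antigen. In WT cells 1 of 8 kinases was called higher in the RIP untreated and 4 lower, beside 27.3% of all genes in each direction. After LPS 1 of 9 was called higher and 4 lower, beside 29.2% and 32.7%. In KO cells 0 of 8 were called higher and 5 lower in each treatment, beside 20.8% higher and 14.6% lower untreated and 22.1% and 18% after LPS. On 3′-UTR totals Mapk8 was the kinase called above its Input in WT cells, at 1.40 (0.46 to 2.34) untreated and 1.52 (0.98 to 2.06) after LPS. In KO cells Mapk8 stood at 0.44 (−0.60 to 1.48) and 0.09 (−0.58 to 0.76).

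Map2k3 lay a little above its Input in WT, at 0.49 (0.13 to 0.85) and 0.40 (0.17 to 0.64), neither called, and below it in KO, at −0.84 (−1.49 to −0.20) and −0.63 (−1.02 to −0.23). Mapkapk3 lay a little below its Input in WT, at −0.35 (−0.68 to −0.02) and −0.43 (−0.67 to −0.19), and far below in KO, at −1.38 (−2.01 to −0.75) and −1.12 (−1.60 to −0.65). Its higher WT over KO ratio was therefore one between a RIP near the Input and a depleted KO RIP. Mapk14 was depleted in all 4 RIPs, at −1.28 and −1.37 in WT and −0.64 and −0.71 in KO, and Mapkapk2 likewise, at −1.21 and −0.63 in WT and −1.25 and −0.53 in KO. Mapk3 had the lowest values of the 9, at −2.71 (−3.56 to −1.85) and −3.24 (−4.20 to −2.29) in WT, against −0.93 (−1.78 to −0.07) and −0.18 (−0.89 to 0.53) in KO. Map3k8 was not called in any RIP on 3′-UTR totals, with values from 0.33 to 0.61. With library totals, TMM or median-of-ratios factors, Map3k8 and Map2k3 were called higher in the WT RIP after LPS. With library totals or TMM, Map2k3 was called higher in the untreated WT RIP as well. With library totals the WT ratios move by 0.06 and 0.51 and the KO ratios by −0.77 and −0.68. Of all calls, 47.2% were higher in WT after LPS, and 58.8% and 55.1% in KO untreated and after LPS. With library totals these shares were 67.3%, 13.8% and 14.1%.

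**Figure D4:**
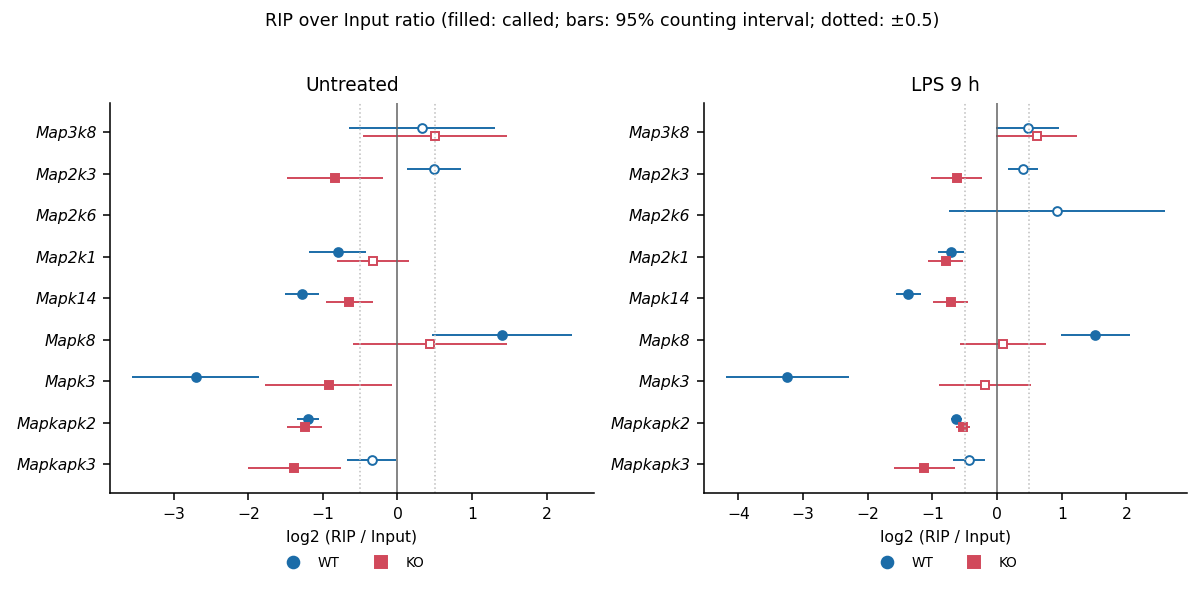
Log2 RIP over Input ratio of the 9 kinases in WT (blue circles) and KO cells (red squares), untreated (left) and after LPS (right), with 95% counting intervals, filled where called. Mapk8 is the kinase called above its Input in WT (1.40 and 1.52), Map2k3 and Mapkapk3 are shifted left in KO, and Mapk3 is shifted left in WT.

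The authors' peak scores (MACS, RIP against its Input) were above 0 for 3 of the 9 kinases, in the WT RIP after LPS alone. They were 213 for Map2k3, 188 for Mapk8 and 54.9 for Map3k8, and 0 for all 9 kinases in the other 3 RIPs. All 3 were below the score that the study's methods require for a target defined by peak score and fold. The share of all regions with a score above 0 was not computed, so 3 of 9 cannot be set against it. The scores of 2 kinases thus went with a called WT over KO ratio, while Map3k8 had a score without one and Mapkapk3 a called ratio without a score.

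Over 9 h of LPS, the Inputs changed for some kinases and not for others. In WT Inputs 2 of 8 kinases were called higher after LPS, Map3k8 and Map2k1, and 1 lower, Mapk3, beside 17.1% and 23.3% of 8163 genes. In KO Inputs 4 of 8 were called higher, Map2k1, Mapkapk2, Mapk8 and Map2k3, and 1 lower, Mapk3, beside 18.2% and 26.8% of 8250 genes. The median log2 change of the kinases was 0.40 in WT and 0.55 in KO, beside −0.08 and −0.18 over all genes. Map2k1, the ERK activator, rose from 113 to 233 CPM in WT and from 118 to 288 in KO, a log2 change of 1.04 (0.73 to 1.34) and 1.29 (1.02 to 1.55). Its 2 Inputs after LPS lay above both untreated ones. Map3k8, which activates it, went from 11.8 to 26.9 CPM in WT and from 18.9 to 28.6 in KO, with log2 changes of 1.09 (0.18 to 1.99) and 0.58 (−0.12 to 1.28), the latter not called. These values rest on 11 and 51 reads in WT and 25 and 43 in KO, untreated and LPS. With library totals, TMM or median-of-ratios factors the KO change of Map3k8 was called higher as well.

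Mapk3, the kinase at the end of the same arm, was lower after LPS in both genotypes, at −0.53 (−1.05 to −0.02) in WT and −0.75 (−1.29 to −0.22) in KO. With library totals, TMM or median-of-ratios factors the WT change, between −0.46 and −0.39, was not called. Mapkapk2 went from 887 to 1192 CPM in WT, a log2 change of 0.42 (0.31 to 0.54), and from 847 to 1560 in KO, a change of 0.88 (0.78 to 0.98). The log2 change of Map2k3 was 0.38 (0.02 to 0.74) in WT and 0.51 (0.18 to 0.84) in KO. For Mapk8 it was 0.64 (−0.34 to 1.62) and 0.85 (0.13 to 1.57), from 10 to 46 reads per Input. Neither change of the p38 kinase Mapk14 was called, at −0.26 (−0.44 to −0.07) and −0.21 (−0.40 to −0.01), nor those of Mapkapk3, at 0.07 (−0.23 to 0.38) and −0.19 (−0.50 to 0.12). Of all calls, 42.3% in WT and 40.5% in KO were higher after LPS, against 49.2% in KO with library totals, 52.0% and 53.6% with TMM, and 49.8% and 54.2% with median-of-ratios factors. With TMM the WT Input changes shift by 0.14 and the KO ones by 0.21, and Map2k3, Mapkapk2 and Map3k8 then were called in both genotypes.

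**Figure D5:**
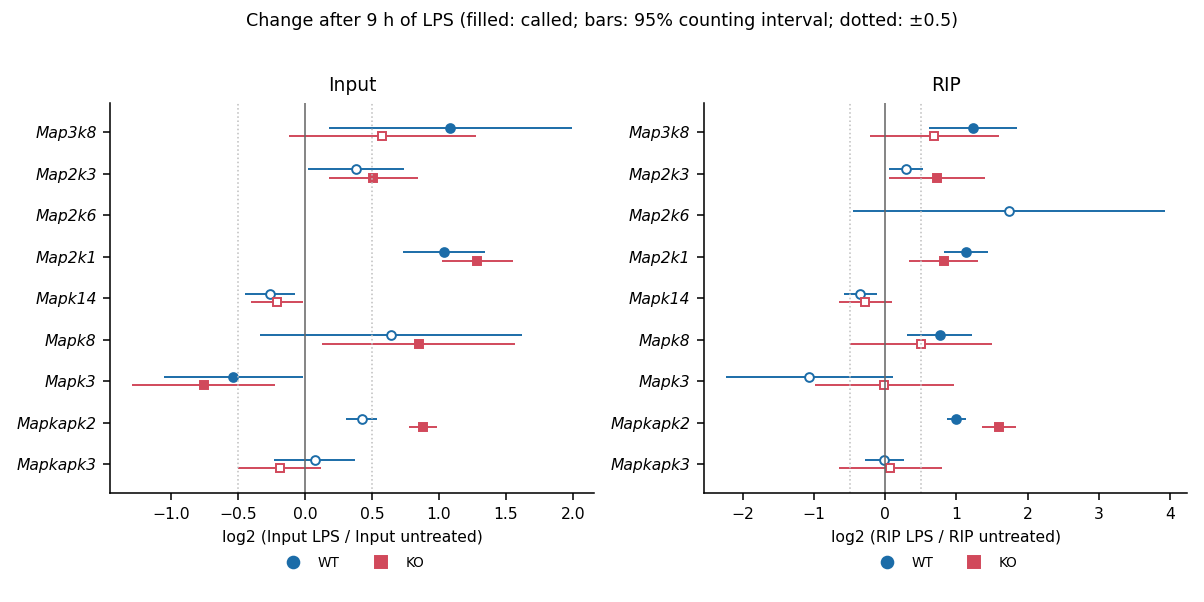
Log2 change after 9 h of LPS in the Inputs (left) and the RIPs (right) of the 9 kinases, WT as blue circles and KO as red squares, with 95% counting intervals, filled where called. Map2k1 is called higher in all 4 comparisons (0.82 to 1.29), Mapkapk2 changes more in KO than in WT in both panels, and Mapk14 and Mapkapk3 are called in none.

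In the RIPs, 4 of 9 kinases were called higher after LPS in WT cells, Map3k8, Map2k1, Mapkapk2 and Mapk8, and 0 lower, beside 16.7% and 29.7% of 8901 genes. In KO cells 3 of 8 were called higher, Mapkapk2, Map2k1 and Map2k3, and 0 lower, beside 15.5% and 24.4% of 7227 genes. Mapkapk2 went from 384 to 770 CPM in the WT RIP, with an interval of the log2 change from 0.87 to 1.13, and from 355 to 1080 in the KO RIP, a change of 1.60 (1.36 to 1.84). Map2k1 changed by 1.13 (0.82 to 1.44) and 0.82 (0.34 to 1.31). For Map3k8 the log2 change was 1.23 (0.62 to 1.85) and 0.69 (−0.22 to 1.59). The Inputs of these 3 kinases had changes of the same sign. Mapkapk3 had 107 and 106 CPM in the WT RIPs, a log2 change of −0.01 (−0.28 to 0.26). Higher calls were 35.9% of all calls in WT and 38.9% in KO, against 69.8% and 53.0% with library totals, 55.1% and 54.8% with TMM, and 52.0% and 52.5% with median-of-ratios factors.

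The difference between genotypes in the LPS change was computed for 8 kinases. For Mapkapk2, the WT Input changed less than the KO Input by 0.46 on the log2 scale, a WT minus KO difference of −0.46 (−0.61 to −0.30) that was under the size needed for a call. For the other 7 the interval included 0. The ratio of WT over KO RIP likewise differed between treatments for Mapkapk2, at −0.60 (−0.87 to −0.33) for LPS minus untreated, and for the other 7 kinases the interval included 0. For Mapkapk3 this difference was −0.08 (−0.85 to 0.69) and for Map2k3 −0.43 (−1.15 to 0.29), which leaves room for a change of either sign. These intervals hold counting error only.

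Of the 9 kinases, 6 had other distinct 3′-UTR regions in the tables. The 1125-base region of Mapk8, which lies inside the long one, gave a log2 ratio of WT over KO RIP of 1.48 (0.54 to 2.43) after LPS, and an input-corrected one of 2.33 (1.06 to 3.60). The 32-base region of Mapk3 next to the 79-base one gave −2.00 (−3.38 to −0.63) untreated and −3.69 (−5.25 to −2.12) after LPS, but 100-base reads can touch both. The 122-base region of Map2k3, with 10 and 4 reads in the WT and KO RIP after LPS, stood at −0.38 (−1.90 to 1.15), an interval that includes the value of the 964-base region. The 406-base region of Mapk14 held 4 and 6 reads there, with a ratio of −2.00 (−3.66 to −0.35). In the untreated WT and KO RIPs it held 9 and 0 reads, the other direction and too few to be tested. The 979-base region of Map3k8, on chromosome 18, lies almost wholly inside the 1097-base one and gave −0.72 and −0.08, untreated and LPS. The second region of Map2k6 held 1 read in all 8 libraries together.

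Beside the 9 kinases, 57 further genes of the MAPK pathways were listed (other MAPKs, MAP2Ks, MAP3Ks, kinases activated by MAPKs, and partners and scaffolds), of which 51 had a region. In WT over KO RIP, 7 of 40 tested were called higher and 3 lower untreated, and 10 of 42 higher and 9 lower after LPS. Over all genes 12.3% and 18.1% were called untreated and 16.4% and 21.7% after LPS, higher before lower. Their median log2 ratio was −0.02 and 0.18. Genes called higher in both treatments were Nlk (1.80 and 0.96), Lamtor3, which encodes a scaffold of MEK and ERK (1.26 and 0.67), the MAPK-activated kinases Mknk2 (0.73 and 0.55) and Mknk1 (0.70 and 0.76), which phosphorylate the initiation factor eIF4E, Mapk6, which encodes ERK3 (0.56 and 0.66), and Tab2, an adaptor of TAK1 (0.58 and 0.66). Genes called lower in both were Map2k2, which encodes MEK2 (−1.74 and −1.79), the JNK scaffold Mapk8ip3 (−1.26 and −2.26) and Tab1, a partner of TAK1 (−1.06 and −1.19). None of the 4 MAP2Ks of this list was called higher in either treatment, while Map2k3 was in both. With 12.3% and 16.4% of all genes called higher, the lack of such a call among 4 genes says little. No difference between Map2k3 and these 4 was tested.

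After LPS, 7 of 42 genes of this wider list were called higher in the WT Input and 11 lower, and 8 of 42 higher and 12 lower in the KO Input, close to the 17.1% and 23.3% in WT and 18.2% and 26.8% in KO over all genes. Those called higher in both were Rps6ka4, which encodes the chromatin kinase MSK2 (1.72 and 1.55, WT and KO), Mapk11, which encodes p38β (2.19 and 1.40, from 2 and 6 untreated reads), Nfkb1, whose p105 product holds TPL2 inactive (1.29 and 1.45), Braf (1.13 and 0.79), the ERK scaffold Ksr1 (0.97 and 0.94) and the JNK activator Map2k4 (0.65 and 0.76). Those called lower in both were Map3k9 (−2.85 and −2.46), Map3k20 (−2.01 and −2.61), the JNK scaffold Spag9 (−1.13 and −1.27), Mknk1 (−1.10 and −1.26), Map3k1 (−1.03 and −1.02), Map3k3 (−0.88 and −0.71), Tab1 (−0.76 and −0.93), Mknk2 (−0.72 and −0.85) and Map3k7, which encodes TAK1 (−0.70 and −0.60). The median change of the list was −0.03 and −0.18, beside −0.08 and −0.18 over all genes and 0.40 and 0.55 over the 8 kinases tested.

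The genes with the pattern most like that of a MAPK were found by the smallest distance between log2 CPM, each centred over the 8 libraries, among 1082 or 1083 genes that had 50 or more reads in each of them. For Mapk14 they were Tmed10 (distance 0.25), Plekhb2 (0.25) and Rab11b (0.32), where the median gene was at 2.03. For Mapk8 they were Ccdc50 (0.49), Rab18 (0.55) and Mfsd14b (0.55), with a median of 2.32. For Mapk3 they were Ctsa (1.05), C1qa (1.14) and Ap2s1 (1.14), with a median of 3.75. Mapk3 and Mapk8 themselves had as few as 9 and 10 reads in a library, so their distances include more counting error.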

How the data were processed

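The methods of the study describe formaldehyde crosslinking, sonication, immunoprecipitation with an anti-CPEB4 antibody and single-end reads of 100 bases. Inputs were depleted of ribosomal RNA, per the labels. The authors aligned reads to mm10 with Bowtie2 2.2.2, removed duplicates and counted reads overlapping Ensembl 3′-UTRs. Whether strand was used is not given in the sources used here. The deposited counts are whole reads per 3′-UTR and library, identical in the 4 tables. The deposited RPKM values were not used in the results. The peak score is the highest MACS 1.4.2 score of the authors over a region, and the deposited region length is in bases. The authors' fold changes and p-values of their own comparisons were not used. Columns of other samples numbered 0.

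Rows without a symbol (495 of 31117, 0.902% to 1.04% of reads) were left out. For each gene the region with the most reads over the 8 libraries was taken. Ratios are log2 of reads plus 1 over the sum of symbol rows, and 95% normal intervals come from the reads of the libraries compared. Intervals hold counting error only, and with 1 library per group no test across replicates exists, so no p-value is given. The 9 kinases, the wider list, marker lists and motifs were chosen with earlier results of these data known. The genes named are the 9 kinases, Cpeb4, genes of the wider list called in the same direction in both RIP comparisons or called in the LPS change of both Inputs, and the 3 nearest in pattern to Mapk14, Mapk3 and Mapk8. Map3k20 was matched by its older symbol Zak. Python 3.11.15, numpy 2.4.6, pandas 2.3.3, scipy 1.17.1, and edgeR 4.0.16 in R 4.3.3 for TMM factors were used. Alternatives were library totals, TMM and median-of-ratios factors, 0.1 reads added, the longest region, the mean over regions, at least 50 reads, a log2 ratio beyond 1, a preset variation of 20% and a chi-square test.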

Additional observations from a re-analysis of the deposited data

Results flagged for a closer look

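Mapkapk2 differed between genotypes in its LPS change and between treatments in its WT over KO ratio, each by the 95% counting interval of the difference itself, computed for 8 kinases. The WT minus KO difference of the Input LPS change was −0.46 (−0.61 to −0.30), and −0.52 with library totals, −0.52 with TMM and −0.56 with median-of-ratios factors. The LPS minus untreated difference of WT over KO RIP was −0.60 (−0.87 to −0.33), and −0.30 (−0.57 to −0.03) with library totals. The reads behind the Input difference were 824 and 2261 in the WT Inputs and 1123 and 2343 in the KO Inputs, untreated and LPS. Those behind the RIP difference were 640 and 1918 in the WT RIPs and 166 and 941 in the KO RIPs. With 1 library per group the spread between cultures is unknown, and what the differences come from was not tested.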

How the results depend on the processing

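No paired analysis was possible because each group is 1 library and its lanes are summed. Of 53 member values called, 45 kept their call with library totals, 47 with TMM, 50 with median-of-ratios factors, 53 with 0.1 reads added, 53 with the longest region, 45 with the mean over regions, 28 with a log2 ratio beyond 1 and 26 with a preset variation of 20%, and 49 of 49 with at least 50 reads and 27 of 44 by the chi-square test. With the preset variation, the RIP ratios of Map2k3, Mapkapk3 and Mapk3 kept their calls in both treatments. Among the calls lost were the input-corrected ones of Map2k3, Mapkapk3 and Mapk14 in both treatments. The RIP calls of Map2k1 untreated and Mapk8 after LPS and the Map3k8 Input change in WT were also among them. The chi-square test gives no input-corrected value. Among the calls it lost were the untreated RIP calls of Mapkapk3, Mapk3 and Map2k1 and the Mapk8 RIP call after LPS. The Input changes of Map3k8 in WT and of Mapk3 in both genotypes were also among them. So were the Mapk8 calls in the untreated WT RIP over Input ratio and in the Input ratio after LPS. The mean over regions took Map2k3 after LPS to 0.29, not called.

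With library totals 3 called values turned sign: Map2k1 in the untreated RIP ratio (−0.52 to 0.32) and Mapk14 in the input-corrected ratio, untreated (−0.64 to 0.19) and after LPS (−0.66 to 0.54). Kinase calls, summed over the conditions of a comparison, moved by over 1.5 times as follows. In the RIP ratio, 5 higher and 3 lower calls became 12 and 1 with library totals, 1 lower with at least 50 reads, 3 higher beyond 1, and 3 and 1 by chi-square. In the input-corrected ratio, 5 higher and 4 lower became 11 and 1 with library totals, 2 lower with TMM, 2 lower with at least 50 reads, 2 lower beyond 1, and 1 and 2 with the preset variation. In the Input ratio, 1 lower became 0 beyond 1, with the preset variation and by chi-square. In RIP over Input, 2 higher became 5 with library totals, 5 with TMM, 4 with median-of-ratios factors and 1 by chi-square, and 18 lower became 8 beyond 1 and 8 with the preset variation. In the Input LPS change, 6 higher became 3 beyond 1, 3 with the preset variation and 3 by chi-square, and 2 lower became 1 with library totals, TMM, median-of-ratios factors and the mean over regions, and 0 beyond 1, with the preset variation and by chi-square. In the RIP LPS change, 7 higher became 11 with library totals, 4 beyond 1, 4 with the preset variation and 4 by chi-square, and 0 lower became 1 with the mean over regions.

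Depth limits Map2k6 (0 to 9 reads), Mapk3 in the RIPs (9 to 23 reads), Map3k8 (11 to 94 reads) and Mapk8 (10 to 131 reads) most. Intervals cover counting error only, since no library has a replicate.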
